A study of Mus musculus with 221 samples.

Results

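The early hemogenic endothelium (HE) of the yolk sac was compared between its 2 forms, the arterial early HE-YSA and the plexus early HE-YSP, using long nanopore reads from cDNA of individual mouse cells. Members were the cells that the labels call HE-YSA (early) or HE-YSP (early) and that had a library of at least 17595 estimated counts, a limit set from the median and the scaled median absolute deviation of all cells. They were 23 of 27 early HE-YSA cells and 25 of 26 early HE-YSP cells, or 48 of the 221 samples of the series. In the study, wild-type CD-1 females were mated with C57BL/6JOlaHsd males that carried the Runx1b RFP reporter, the Gfi1 GFP reporter or both, and untreated endothelial cells were sorted from the yolk sac as RUNX1+, KIT+, GFI1+/-, CD31+, CD41- and CD45-. Which reporters each embryo carried is not given per cell. This stated sort and tissue were the same for both populations, although the sort tags in the library names differed, as given below. The populations are defined by the cluster that the authors gave each cell from short reads of the same amplified cDNA.

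The early HE-YSA cells came from embryonic day (E) 9 in 1 cell, E9.5 in 7 and E10.5 in 14, and 1 cell had no stage in its library name. The early HE-YSP cells came from E9 in 10 cells, E9.5 in 2 and E10.5 in 13. The sort tag in the library name was HE_Gfi1 for 18 early HE-YSA cells and 3 early HE-YSP cells, and HE_Runx1 for 3 and 22, so that the tag and the population largely cannot be told apart. The tags of the remaining 2 early HE-YSA cells were ACE_pos and Runx1_HE, whose meaning is not given. The Runx1_HE cell also came from another cDNA project than all other cells compared. The 3 nanopore runs held 8, 7 and 8 early HE-YSA cells and 9, 9 and 7 early HE-YSP cells. At E10.5, 3 cDNA plates held both populations, with 13 cells of each. The estimated counts summed to 840534 over the early HE-YSA cells, which had from 18543 to 71389 each, and to 850978 over the early HE-YSP cells, which had from 18807 to 62578 each. A cell had 1 or more counts in a median of 3755 genes in early HE-YSA.

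Every sample is 1 cell and no embryo or litter is named, so each population counted as 1 sample and differences carry no test. Levels are given as CPM (counts of a gene per 1000000 counts of its population), with exact 95% Poisson intervals, which cover counting error only because PCR copies were not told apart by molecular identifiers. Since each cell had been assigned to its population by the expression of its own cDNA, the gene levels below describe the 2 labels and are not independent evidence for them.

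Hemogenic endothelium is the specialised endothelium from which blood cells bud during embryonic life, by a transition in which a flat vessel-lining cell loses its junctions and takes on a blood programme. The transcription factor RUNX1 is required for it, and GFI1 helps to silence the endothelial programme. The yolk sac first forms a capillary plexus, which flow then remodels into arteries and veins. Arterial endothelium depends on VEGF and Notch signalling, on SOXF factors and on gap junctions made of connexins, while the yolk sac plexus is known for scavenger receptors that take up material from blood and yolk.

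The sequences that bear on the comparison lie in promoters and at splice sites. First are 3 stretches, shown because they separate the transcripts whose share of their gene's counts differed between the populations in every run. All lie on the minus strand of GRCm38 at the 5′ boundary of an exon, and the capitals mark the bases that some transcripts of the gene contain and others skip. They were chosen after the fractions had been seen. The fractions come from estimates for whole transcripts, and reads were not inspected across the stretches. The transcripts also differ elsewhere, as with Caprin1-202 (18 exons, 4069 bases) and Caprin1-208 (9 exons, 760 bases). Use of the splice sites themselves was thus not tested.
Nudt14, 36 bases at chr12:112938558-112938593: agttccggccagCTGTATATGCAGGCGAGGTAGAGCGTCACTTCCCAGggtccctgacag
Rbm5, 4 bases at chr9:107765647-107765650: gatagtccagagAGAGagcgtgaaagaa
Caprin1, 51 bases at chr2:103773745-103773795: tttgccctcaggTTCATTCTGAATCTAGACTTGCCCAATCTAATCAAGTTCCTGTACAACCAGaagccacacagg

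The stretches of Nudt14 and Caprin1 are multiples of 3 bases inside the coding sequence. The stretch of Rbm5 is not, and the same letters precede it, so that its 2 splice sites stand in a short repeat.

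Promoter windows of genes with the largest level differences follow, because the stated sort was RUNX1+. The capitals mark TGTGGT, letters of the RUNX consensus, with 30 bases on each side. They are RefSeq sequences of build GRCm38.p6, given on the strand of the gene.
Serpinf1, higher in early HE-YSA, minus strand, chr11:75422705-75422770: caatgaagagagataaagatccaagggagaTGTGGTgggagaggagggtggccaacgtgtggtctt
Stab2, higher in early HE-YSP, minus strand, chr10:87007980-87008045: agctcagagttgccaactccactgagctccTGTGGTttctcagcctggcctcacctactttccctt
Cnrip1, higher in early HE-YSP, plus strand, chr11:17051791-17051856: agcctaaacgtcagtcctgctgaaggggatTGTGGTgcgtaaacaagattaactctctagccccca
Fermt3, higher in early HE-YSP, minus strand, chr19:7019495-7019560: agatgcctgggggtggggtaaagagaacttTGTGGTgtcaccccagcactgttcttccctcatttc

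The promoter table, which spans 250 bases before to 50 after a start, held 7 of the 12 genes with the largest ratios in early HE-YSA and 9 of the 12 in early HE-YSP. The letters TGTGGT or their reverse complement ACCACA were found for 2 and 4 of these, and the windows shown lie wholly before the start, with a second match in Serpinf1 left out. Over all called genes with a promoter (the call is defined below), the letters were in 7 of 68 genes higher in early HE-YSA (10.3%) and in 18 of 57 genes higher in early HE-YSP (31.6%). They were in 14.4% of the promoters of all 5493 compared genes with an entry and in 16.8% of all 32851 promoters. The ETS letters CGGAAG or CTTCCG were in 30.9% and 26.3% of the called genes, below the 40.8% of compared genes. The other 5 motifs counted are given by their shares in genes higher in early HE-YSA, genes higher in early HE-YSP, compared genes and all promoters. AGATAA, read by GATA factors, was in 11.8%, 7.02%, 7.43% and 11.2%. GTGGGAA, read by RBPJ, was in 7.35%, 12.3%, 6.79% and 6.38%. ACAATG, read by SOX factors, was in 7.35%, 12.3%, 8.94% and 12.6%. The E-box CACGTG was in 13.2%, 10.53%, 12.7% and 7.15%, and TGCTGA, read by MAF factors, was in 19.1%, 21.1%, 17.1% and 19.5%. Matches were counted on both strands and describe letters, not binding.

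The endothelial label held in both populations. Of 10 endothelial markers, a cell had counts for between 7 and 10 in early HE-YSA and between 6 and 10 in early HE-YSP, with a median of 8 in each. Cdh5, the adherens junction protein VE-cadherin, had a count in 23 and 24 cells, and Cldn5, a tight junction protein of endothelium, in every cell of both. Of 7 markers of blood commitment, a cell had counts for between 0 and 4 in each population, with a median of 2. At least 1 of them had a count in 21 of 23 early HE-YSA cells and 20 of 25 early HE-YSP cells. Laptm5 had a count in 17 and 13 cells, Coro1a in 17 and 8, Spi1 in 7 and 7 and Myb in 1 and 2. Ptprc, which encodes CD45, and Spn had no count in any of the 48 cells, which allows up to 3 counts of either summed total. Itga2b, which encodes the CD41 antigen excluded by the sort, had a count in 1 early HE-YSA cell and 10 early HE-YSP cells, at 1.19 CPM (0.0301 to 6.63) and 51.7 CPM (37.6 to 69.4).

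Markers of other cells were scarce. The summed level of the macrophage list was 3.57 CPM in early HE-YSA and 11.8 CPM in early HE-YSP, with 6 of its 8 genes, C1qa, C1qb and Adgre1 among them, at 0 in all cells. The yolk sac endoderm list summed to 2.38 and 14.1 CPM, with 10 of its 11 genes at 0, Afp and Ttr among them. The erythroid list summed to 46.4 and 87.0 CPM and lay between 0 and 872 CPM per cell in early HE-YSA and between 0 and 559 CPM in early HE-YSP. The megakaryocyte list summed to 19 and 107 CPM and reached 89.6 and 541 CPM per cell, of which Pf4 summed to 5.95 and 51.7 CPM. The mesenchyme list summed to 33.3 and 22.3 CPM, with 4 of its 11 genes at 0. Their part in the differences below was not tested.

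Gene levels were compared for 8800 genes with a count in at least 10% of the 48 cells. A gene was called where the log2 ratio of CPM was past 1.5, the gene had a count in more than 50% of the cells of the higher population and the sign was the same in each of the 3 runs. The ratio places a population with under 3 counts at 3 counts. The call was met by 92 genes higher in early HE-YSA (1.05% of those compared) and 79 higher in early HE-YSP (0.898%), of which 7 and 6 were processed pseudogenes. The median log2 ratio of all compared genes was 0.02, with quartiles of -0.51 and 0.60.

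Among the arterial genes, Gja5, which encodes connexin 40 of arterial gap junctions, had the largest log2 ratio. Its level was 463 CPM (418 to 511) in early HE-YSA and 10.6 CPM (4.84 to 20.1) in early HE-YSP, a log2 ratio of 5.45. Per cell it was 0 at the lowest, 333 at the median and 2179 CPM at the highest in early HE-YSA. In early HE-YSP it was at 0 in all cells but 1, which reached 300.1 CPM, and 12 early HE-YSA cells lay above that cell. Gja4, which encodes connexin 37, was at 1153 CPM (1081 to 1228) and 224 CPM (194 to 259), a log2 ratio of 2.36. It had a count in all 23 early HE-YSA cells, from 145 over a median of 1272 to 2077 CPM, and in 12 of 25 early HE-YSP cells, where the median was 0 and the highest cell had 1278 CPM. The 2 ranges thus overlapped, and 11 early HE-YSA cells lay above all early HE-YSP cells.

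Vwf, the von Willebrand factor that endothelium stores and releases for clotting, was at 246 CPM (214 to 282) in early HE-YSA. In early HE-YSP it had 3 summed counts, or 3.53 CPM (0.727 to 10.3), a ratio of 69.9 with a counting interval of 23.6 to 342. It had a count in 21 of 23 early HE-YSA cells, with a median of 198 and a highest value of 848 CPM, and in 2 of 25 early HE-YSP cells, with at most 66.7 CPM. Early HE-YSA cells above every early HE-YSP cell numbered 20. Serpinf1, which encodes the secreted anti-angiogenic factor PEDF, had a count in every early HE-YSA cell, between 186 and 1558 CPM with a median of 509. It had a count in 6 early HE-YSP cells, with a highest value of 327 CPM, and the summed levels were 545 (496 to 597) and 34.1 CPM (22.8 to 48.9). Serpinf1 was the gene among the 12 with the largest ratios that no early HE-YSA cell lacked.

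Myl9, a regulatory myosin light chain of contractile cells, had the largest ratio among the genes higher in early HE-YSA, 144 with an interval of 37.5 to 1375, but was uneven across cells. It was at 309 CPM (273 to 349) in early HE-YSA, where 12 cells had a count and 1 cell held 24.99% of all counts, and leaving out any of 12 cells ended the call, because the gene then had a count in no more than 50% of the rest. In early HE-YSP it was at 2.15 CPM (0.226 to 8.18). Ctsh, which encodes the lysosomal protease cathepsin H, was more even, with a count in 20 early HE-YSA cells and 1 early HE-YSP cell and levels of 88.04 (69.1 to 111) and 1.18 CPM (0.0298 to 6.55). Smtnl2 had a count in 14 and 1 cells, Klhl13 in 12 and 0 cells and Hmgn3, a nucleosome-binding protein, in 14 and 2 cells. Against the limit of 3 counts, Klhl13 was at least 18.6-fold higher in early HE-YSA, and leaving out any of 12 cells ended its call as well.

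**Figure D1:**
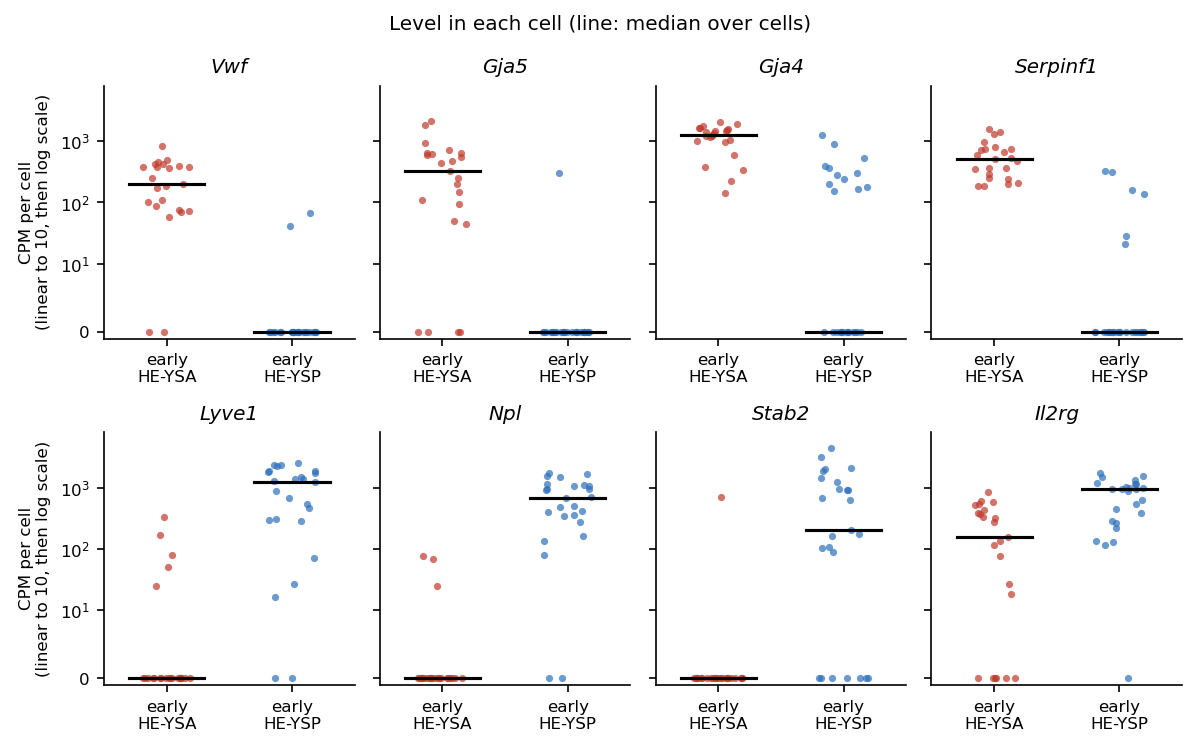
CPM of 8 genes in each cell, on a log-like axis, for the 23 early HE-YSA and the 25 early HE-YSP cells. Points are cells and the line is the median. Serpinf1 and Gja4 lie above 0 in every early HE-YSA cell, while Lyve1 and Npl do so in 23 of 25 early HE-YSP cells.

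Regulators of blood and stem cell identity were also among the genes higher in early HE-YSA. Gata2, a transcription factor needed for blood formation from endothelium, was at 49.97 CPM (36.01 to 67.5) with a count in 16 cells, against 5.88 CPM (1.91 to 13.7) in 5 early HE-YSP cells. Hoxa9 was at 69.00 CPM (52.4 to 89.2) in 14 early HE-YSA cells and had 1 count in 1 early HE-YSP cell. Mecom, a regulator of blood stem cells that is also on the arterial list, was at 137 (113 to 164) and 28.2 CPM (18.1 to 41.96). Mllt3 was at 120.2 (97.9 to 146) and 21.2 CPM (12.5 to 33.4). The per-cell values of these 4 genes reached 0 in some cells of both populations, so that single cells overlapped in all of them.

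Ccnd2, a D-type cyclin, had counts in 12 early HE-YSA cells and in none of the 25 early HE-YSP cells, at least 15.5-fold higher, and leaving out any of 12 cells ended its call. Cd24a, a surface antigen, had counts in 14 cells and none, at least 13.5-fold higher. Pdcd4, an inhibitor of translation, was at 146 (122 to 175) and 5.88 CPM (1.91 to 13.7). Fn1, the matrix protein fibronectin, was at 684 CPM (629 to 742) with a median of 653 and a range of 0 to 2319 CPM per cell in early HE-YSA. In early HE-YSP it was at 81.2 CPM (63.2 to 103), with a median of 0 and a highest cell of 485 CPM. Nrp1, a co-receptor for VEGF and semaphorins, was at 209 (179 to 242) and 64.6 CPM (48.7 to 84.1), and Epas1, a hypoxia-inducible factor of endothelium, at 127 (104 to 154) and 24.7 CPM (15.3 to 37.7).

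Several of the genes higher in early HE-YSP encode receptors for uptake. Lyve1, a hyaluronan receptor used as a marker of the yolk sac plexus, was at 911 CPM (848 to 977) in early HE-YSP and 33.3 CPM (22.1 to 48.1) in early HE-YSA, a log2 ratio of -4.77. Per cell its lowest value was 0, its median 1228 and its highest 2534 CPM in early HE-YSP, with a count in 23 of 25 cells. In early HE-YSA 5 of 23 cells had a count and the highest was at 333 CPM, below 17 early HE-YSP cells. Stab2, the scavenger receptor stabilin-2, was at 849.6 CPM (789 to 914) in early HE-YSP, with a median of 204 and a highest cell of 4419 CPM. All of its counts in early HE-YSA, 20.2 CPM (11.8 to 32.4), came from 1 cell, which had 708 CPM, more than the early HE-YSP median. Mrc1, the macrophage mannose receptor, which plexus and lymphatic endothelium also express, had a count in 17 early HE-YSP cells at 108 CPM (87.2 to 133) and in none of the 23 early HE-YSA cells, at least 30.3-fold higher.

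Fcgrt, which encodes the neonatal Fc receptor that carries immunoglobulin and albumin across cells, had a count in 15 and 3 cells and levels of 332 (295 to 373) in early HE-YSP and 3.57 CPM (0.736 to 10.4) in early HE-YSA, a ratio of 93.1 with an interval of 31.5 to 454. Stab1, the related stabilin-1, was at 129 (106 to 156) and 27.4 CPM (17.3 to 41.1), and 12 of the 23 early HE-YSA cells had a count. The difference in Stab1 was thus smaller than that in Stab2, with log2 ratios of -2.24 and -5.39.

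Enzymes and secreted proteins were also higher. Npl, an enzyme that cleaves sialic acid, was regular across cells, with a median of 691 and a highest value of 1756 CPM in early HE-YSP and a count in 23 of 25 cells. In early HE-YSA 3 cells had a count and none exceeded 77.2 CPM, so that all 23 early HE-YSP cells with a count lay above every early HE-YSA cell. The summed levels were 637 (584 to 693) and 8.33 CPM (3.35 to 17.2). Hpgd, which inactivates prostaglandins, had a count in 19 early HE-YSP cells and 1 early HE-YSA cell, at 194 (165 to 226) and 1.19 CPM (0.0301 to 6.63). Car2, a carbonic anhydrase, was at 147 (122 to 175) and 5.95 CPM (1.93 to 13.9). Selenop, a secreted selenium carrier, was detected in both, with a median of 571 CPM in early HE-YSP and 71.7 in early HE-YSA and summed levels of 682 (627 to 739) and 77.3 CPM (59.7 to 98.6). Igf1, a growth factor, had a count in 23 and 5 cells.

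Some genes otherwise known from blood and platelets were also higher in early HE-YSP. On the haematopoietic list given below, however, 12 of 15 compared genes had a ratio toward early HE-YSA. Fcer1g, the shared gamma chain of Fc receptors, was at 447 (403 to 494) and 27.4 CPM (17.3 to 41.1). Fermt3, the kindlin of blood cells, had a count in 15 and 3 cells. Clec1b, the podoplanin receptor of platelets, was at 585 (535 to 639) and 47.6 CPM (34.00 to 64.8), with a count in 20 and 5 cells. Il2rg, the common gamma chain of cytokine receptors, had a count in 24 of 25 early HE-YSP cells with a median of 939 CPM, and in 17 of 23 early HE-YSA cells with a median of 154 CPM. Its summed levels were 787 (729 to 849) and 242 CPM (209 to 277), and single cells overlapped between 0 and 868 CPM. Pros1, the anticoagulant protein S, Cnrip1 and Dok4, a docking protein of receptor kinases, had a count in 13, 18 and 14 early HE-YSP cells and in 2, 0 and 2 early HE-YSA cells, and leaving out any of 13 cells ended the call of Pros1.

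The 2 sets of 12 genes with the largest ratios marked nearly every cell. An early HE-YSA cell had counts for 6 to 10 of the 12 genes higher in early HE-YSA (median 8) and for 0 to 5 of the 12 higher in early HE-YSP (median 1). An early HE-YSP cell had counts for 4 to 12 of the latter (median 9) and 0 to 5 of the former (median 1). These ranges describe the genes chosen for their ratios.

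The reporter genes used for the sort are no finding between the populations. Gfi1 was at 99.9 CPM (79.7 to 124) in early HE-YSA and 16.5 CPM (8.99 to 27.6) in early HE-YSP. Among the HE_Gfi1 cells alone its levels were 118 and 76.2 CPM, and among the HE_Runx1 cells 0 and 8.04 CPM, so the summed difference moved with the sort tag. Runx1 was near the limit of detection, with 18 counts in 4 early HE-YSA cells and 1 count in 1 early HE-YSP cell, although the stated sort was RUNX1+.

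Gene lists taken from the study were chosen with these populations in view and are no independent evidence of direction. The share of all genes called, 1.05% and 0.898%, and the median of all compared genes, 0.02, are the background for each count. On the arterial endothelium list, 13 of 20 genes were compared and all 13 had a ratio above 0, with a median of 2.37 and medians of 2.28, 1.42 and 1.69 in the 3 runs. Over the same genes the median was 0.61 among HE_Gfi1 cells (18 and 3) and 3.50 among HE_Runx1 cells (3 and 22). The medians of all genes there were -0.54 and 0.99. The 3.50 is the log2 ratio of the summed totals, which a gene with 3 or fewer counts in both populations takes. It measures no arterial difference. Gja5, Gja4, Mecom, Efnb2 and Epas1 were called. Efnb2, the arterial ephrin ligand, was at 63.1 (47.2 to 82.5) and 19.98 CPM (11.6 to 31.99), and leaving out 1 cell could end its call. Hey1, a transcription factor downstream of Notch, was at 153 CPM (128 to 182) in 11 early HE-YSA cells and had no count in early HE-YSP, at least 43.5-fold higher, and missed the call because under 50% of the cells had a count. Pdlim1 had a log2 ratio of 0.09. Dll4, Cxcr4 and Bmx had too few cells with a count to be compared.

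On the yolk-sac endothelium list, 20 of 30 genes were compared and all 20 had a ratio below 0, with a median of -3.17 and run medians of -2.57, -2.28 and -2.65. It was -1.86 among E9 and E9.5 cells, -2.76 among HE_Gfi1 cells and -0.43 among HE_Runx1 cells. The -2.76 is likewise the log2 ratio of the summed totals, taken by genes with 3 or fewer counts in both populations. It measures no difference of the list. Called were Lyve1, Stab2, Mrc1, Fcgrt, Npl, Selenop, Gimap4, Lgmn and Tcn2. Gimap4, a small GTPase, was at 182 (155 to 213) and 28.6 CPM (18.3 to 42.5), Lgmn, a lysosomal protease, at 181 (154 to 212) and 45.2 CPM (31.99 to 62.1), and Tcn2, a carrier of vitamin B12, at 343 (305 to 385) and 101 CPM (80.8 to 125). Among HE_Runx1 cells the log2 ratio of Tcn2 was 0.02. The ratio nearest 0 on the list was that of Gpm6b, -0.54. The 3 compared genes of the venous list, Aplnr, Flrt2 and Nrp2, had ratios of -3.98, -3.95 and -2.65, and none was called because at most 11 early HE-YSP cells had a count. Nr2f2, the venous transcription factor, had a count in too few cells to be compared.

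**Figure D2:**
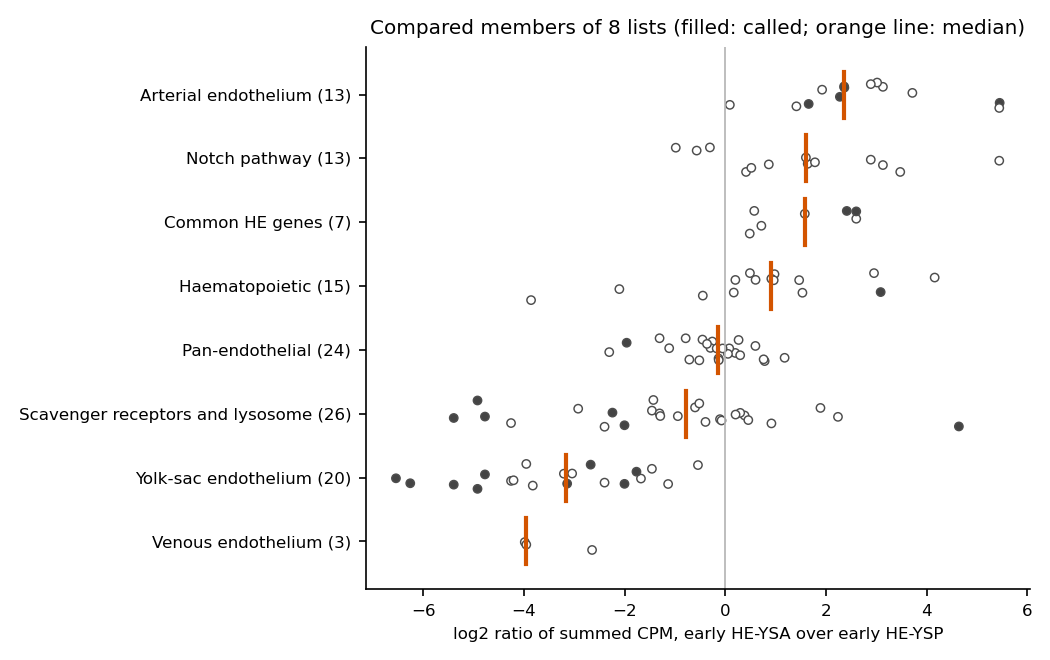
Log2 ratio of CPM, early HE-YSA over early HE-YSP, for the compared members of 8 gene lists. Filled points are called genes, open points are not called, and the orange mark is the median of a list. The arterial members all lie above 0 (median 2.37) and the yolk-sac members all below (median -3.17).

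The summed level of the arterial list was 2395 CPM in early HE-YSA and 385 CPM in early HE-YSP, and that of the yolk-sac list 437 and 4865 CPM. In each early HE-YSA cell the arterial sum was above the yolk-sac sum. In early HE-YSP the yolk-sac sum was the larger in 23 of 25 cells. The 2 exceptions were an E10.5 cell with 1486 arterial and 1406 yolk-sac CPM, the deepest library of early HE-YSP, and an E9.5 cell with 489 and 163 CPM, both tagged HE_Runx1. The first of these had counts for 5 arterial and 11 yolk-sac genes, and the second for 2 and 3.

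**Figure D3:**
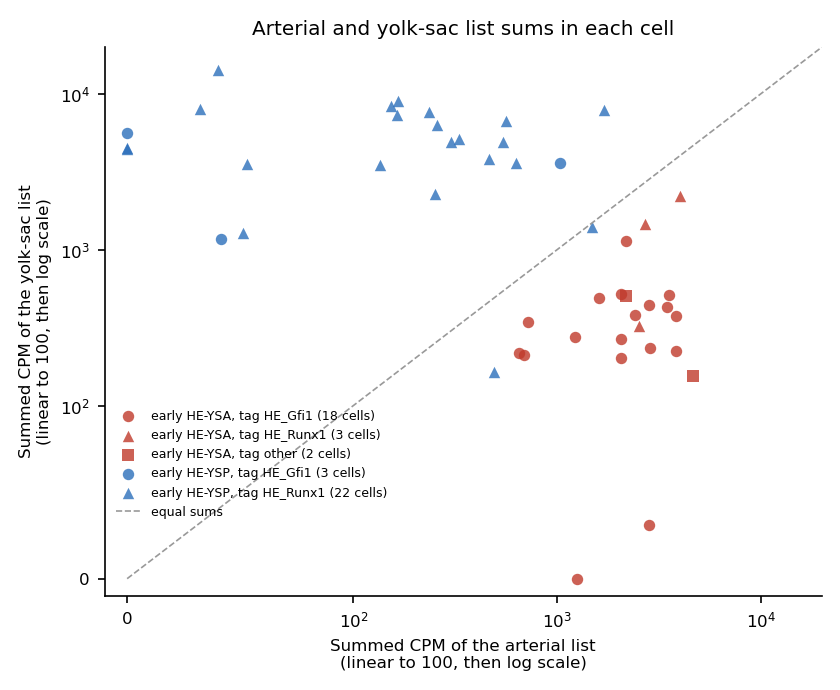
Summed CPM of the arterial list (x axis) against the yolk-sac list (y axis) in each of 48 cells, on axes linear to 100 and logarithmic above, with the shape of a point for the sort tag. The dashed line marks equal sums. All 23 early HE-YSA cells lie below it and 23 of 25 early HE-YSP cells above it.

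Notch signalling genes moved less evenly. Of the 18 genes on the study's list 13 were compared, 10 with a ratio above 0 and 3 below, with a median of 1.60 and none called. The run medians were 0.58, 0.12 and 0.26. The 0.12 of run 2 is the log2 ratio of the summed totals, taken by genes with 3 or fewer counts in both populations. When single cells were left out, the median over all runs moved between 0.77 and 1.68. It was 0.77 without early HE-YSA cell 23 and 0.82 without cell 17. Hes1, a direct Notch target, was at 39.3 CPM (27.03 to 55.1) in 7 early HE-YSA cells and had no count in early HE-YSP. The ligand Jag2 had a ratio of 2.89, whereas the receptor Notch1 had -0.57 and the co-activator Maml1 -0.98. Summed over the list, the level was 501 CPM in early HE-YSA and 184 CPM in early HE-YSP.

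The genes common to all endothelium had 1 call. Of 24 pan-endothelial genes, all compared, 9 had a ratio above 0 and 15 below, with a median of -0.15, and Ets2, an ETS transcription factor, was called, at 70.2 (53.4 to 90.5) in early HE-YSA and 273 CPM (239 to 310.1) in early HE-YSP. Cldn5 was at 1638 (1553 to 1727) and 2008 CPM (1914 to 2106). Sox17, a SOXF factor of arterial and hemogenic endothelium, had a ratio of 1.18, Kdr, the main VEGF receptor, -1.11, and Erg, an ETS factor, -1.30. Robo4, a guidance receptor of endothelium, had the ratio farthest from 0 on the list, -2.30, with a count in 6 and 10 cells. Of the 8 common HE genes of the study 7 were compared, all with a ratio above 0 and a median of 1.58, and Gfi1 and Mycn were called. The list includes Gfi1 and Runx1, the reporter genes of the sort. Its median was 0.098 among HE_Gfi1 cells and 2.12 among HE_Runx1 cells, where the medians of all genes were -0.54 and 0.99. It thus moved with the sort tag. Mycn was at 163 (137 to 193) and 30.6 CPM (19.96 to 44.8).

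Lists assembled from general knowledge held single calls or small groups of them. On the haematopoietic list 15 of 24 genes were compared, 12 with a ratio above 0, and Gata2 was called, while Itga2b and Lmo2 had ratios of -3.86 and -2.10. On the homeobox and stem cell list 14 of 27 were compared, with a median of 1.02 and run medians of 0.34, 0.12 and 1.23. The 0.12 of run 2 is again the log2 ratio of the summed totals and measures no difference of the list. The median of the list was -0.17 among HE_Gfi1 cells and 1.22 among HE_Runx1 cells. Hoxa9, Mecom and Mllt3 were among the genes called. On the scavenger receptor and lysosome list 26 of 32 were compared, with a median of -0.77. Called higher in early HE-YSP were the receptors Stab1, Stab2, Lyve1 and Mrc1 and the protease Lgmn, and Ctsh was called higher in early HE-YSA, while Psap, Lamp1 and Npc2 had ratios of 0.30, 0.38 and -0.10. The receptors thus differed more than these genes of the lysosome itself. On the ephrin, gap junction and guidance list 13 of 17 were compared, with a median of 0.28, and Efnb2, Gja4 and Gja5 were called. On the VEGF, neuropilin and TIE list 10 of 15 were compared, with a median of -0.78, and Nrp1 was called.

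Basement membrane and matrix genes, 16 of 24 compared, had a median of -0.19, with Fn1 called in early HE-YSA and Emilin1, an elastic fibre protein, in early HE-YSP, at 119 (96.7 to 144) and 22.6 CPM (13.6 to 35.3), a call that leaving out 1 cell could end. The myeloid list, 8 of 24 compared, had 1 call, Fcer1g, and of the lymphoid list only Il2rg was compared. The imprinted genes, 11 of 17 compared, had a median of 0.33 and 1 call, Peg3, which leaving out 1 cell could end. Igf2, the fetal growth factor, was among the most abundant transcripts of both populations, at 10976 (10754 to 11203) and 8738 CPM (8541 to 8939). The antigen presentation and interferon list, 13 of 21 compared, had a median of -0.22 and 1 call, Ifitm1, at 146 (121 to 174) and 13.5 CPM (6.87 to 23.9). The BMP and TGF-beta list (13 of 25 compared, median 0.23) and the flow and immediate early list (11 of 21, median -0.44) had no call.

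The study's lists for blood progenitors had calls in both directions. EMPs are erythro-myeloid progenitors and LMPs lympho-myeloid progenitors. Of 90 EMP genes 45 were compared, with a median of 0.19, 3 called in early HE-YSA (Gata2 and Pdcd4 among them) and 2 in early HE-YSP (Car2 and Spns1). Of 67 LMP genes 23 were compared, with a median of 0.02, 4 called in early HE-YSA (Ccnd2, Hmgn3, Mycn and Tsc22d1) and 1 in early HE-YSP (Sesn1). The EMP-fate list (6 of 8 compared, median 0.15) and the LMP-fate list (11 of 15, median -0.67) had no call.

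Housekeeping groups gave the scale for these medians. Cytosolic ribosomal protein genes, 78 of 82 compared, had a median of 0.02, and mitochondrial genes, 29 of 34 compared, -0.03, with no call in either. Ribosomal protein genes share reads with pseudogenes, so single ones are uncertain. Glycolysis genes (17 of 21 compared) had a median of 0.23 with no call, and splicing factors of the SR and hnRNP families (34 of 35) had 0.26 with no call. Genes of Myc and the nucleolus (21 of 22) had 0.47, and Mycn was called. The S phase list (40 of 43 compared) had a median of 0.13 and the G2/M list (44 of 52) -0.57, with no call in either. The G2/M medians in the 3 runs were 0.37, -0.19 and -1.55, so that the runs did not share a direction. Ube2c, a mitotic ubiquitin-conjugating enzyme, was at 340.3 (302 to 382) and 713 CPM (658 to 772), and its cells ranged from 0 to 3205 and from 0 to 2749 CPM.

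The differences were then read within stage groups, plates and sort tags, using the same 92 and 79 genes, which had been chosen on all 48 cells. Among the E10.5 cells of the 3 shared plates, 13 of each population, 92 of 92 and 79 of 79 genes had the same sign, and 78 and 70 were past 1.5. Among the E9 and E9.5 cells, 8 and 12, the sign was the same for 92 of 92 and 77 of 79, with Cmtm3 and BC028528 as the exceptions, and 67 and 53 were past 1.5. That group pools 2 stages, with 1 cell of E9 and 7 of E9.5 in early HE-YSA and 10 and 2 in early HE-YSP. Of its early HE-YSA cells, 5 came from plate WN-S7-1, which held no early HE-YSP cell. Population, day and plate thus largely cannot be told apart there. Of the 12 genes with the largest ratios, 8 of those higher in early HE-YSA and 11 of those higher in early HE-YSP had the same direction on each of the 3 plates. Smtnl2, Hoxa9, AU021092 and Hmgn3 had no count in either population on plate WN-S6-3, which held 2 cells of each, and Fcer1g was the exception in early HE-YSP.

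Some levels differed more between stages than others. In early HE-YSA, Vwf was at 293 CPM at E10.5 and 145 CPM at E9 and E9.5, and Gja5 at 565 and 172 CPM, while Serpinf1 was at 559 and 455 CPM. In early HE-YSP, Stab2 was at 1081 CPM at E10.5 and 489.7 CPM at E9 and E9.5, whereas Lyve1 was at 577 and 1430.1 CPM and Npl at 511 and 832 CPM. Stab2 was thus higher at the later stage and Lyve1 and Npl at the earlier ones, with no test of the difference. In early HE-YSP, 8 of 10 E9 cells came from plate WN-S6-3 and 8 of 13 E10.5 cells from WN-S6-4. Stage and plate thus largely cannot be told apart. At E10.5, Lyve1 in early HE-YSP was at 191, 1375 and 583 CPM on plates WN-S6-1, WN-S6-3 and WN-S6-4. The arterial sum in early HE-YSA was 2583 CPM at E10.5 and 1887 CPM at E9 and E9.5, and the yolk-sac sum in early HE-YSP was 5159 and 4407 CPM.

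The same genes were read within each sort tag. Among the HE_Runx1 cells, 3 early HE-YSA and 22 early HE-YSP, Vwf was at 302 and 4.02 CPM, Gja5 at 514 and 12.1 CPM and Serpinf1 at 589.6 and 37.5 CPM. In the same cells Lyve1 was at 60.5 and 879 CPM, Npl at 0 and 684 CPM and Stab2 at 257 and 928 CPM, with all Stab2 counts of early HE-YSA again from 1 cell. The yolk-sac sum of the 3 early HE-YSA cells was 1406 CPM, between 324 and 2205 per cell, above the 353 CPM of the 18 HE_Gfi1 cells of early HE-YSA and below the 5111 CPM of the 22 early HE-YSP cells. Among the HE_Gfi1 cells, 18 and 3, Lyve1 was at 33.8 and 1134 CPM, Npl at 7.03 and 305 CPM, Vwf at 245 and 0 CPM and Gja5 at 407 and 0 CPM.

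With 3 cells on a side, ratios of weakly expressed genes follow the smaller total, and the median over all genes moved to -0.54 among HE_Gfi1 cells and 0.99 among HE_Runx1 cells. Within HE_Gfi1, 89 of 92 and 75 of 79 genes had the same sign and 45 and 47 were past 1.5. Within HE_Runx1, 92 of 92 and 71 of 79 had the same sign and 66 and 19 were past 1.5. The limit of 3 counts stands for a higher CPM on the side with 3 cells. The signs of genes near it were thus largely fixed in advance, toward early HE-YSA within HE_Runx1 and toward early HE-YSP within HE_Gfi1. Among HE_Runx1 cells Hoxa9 was at 0 CPM in both populations. Pdcd4 was at 0 CPM in early HE-YSA and 6.70 CPM in early HE-YSP, and both genes are among the 92. The part of the sort tag in the differences was not tested beyond these counts.

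**Figure D4:**
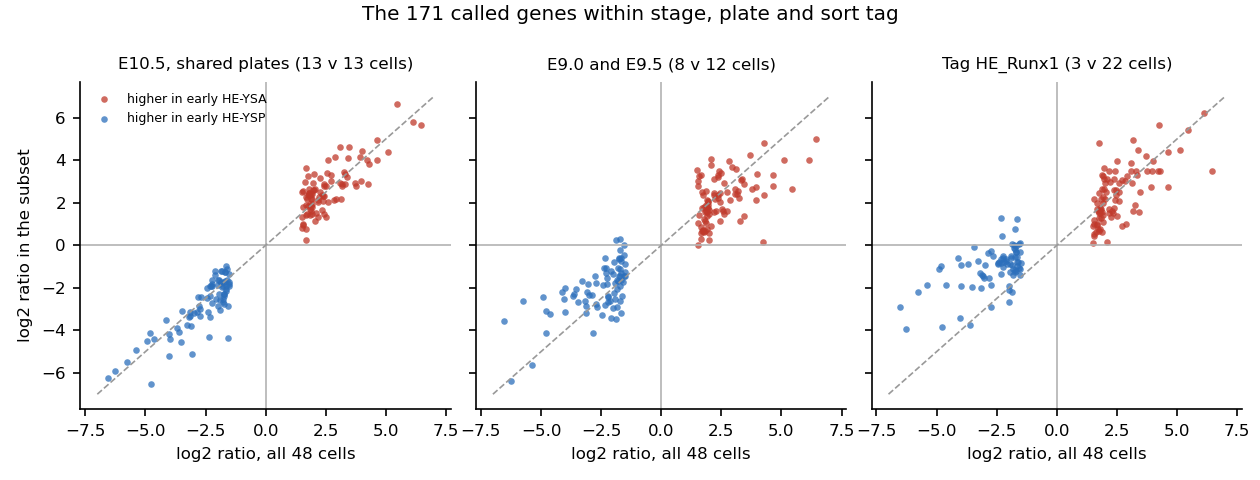
Log2 ratio of the 171 called genes in all 48 cells (x axis) against the ratio in E10.5 cells of shared plates (13 and 13 cells), in E9 and E9.5 cells (8 and 12) and in HE_Runx1 cells (3 and 22) on the y axes. The same sign in both holds for all 171 genes on the shared plates and for 71 of the 79 genes higher in early HE-YSP among HE_Runx1 cells.

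Isoform fractions, the share of a gene's counts assigned to each transcript, were compared for 792 genes with 2 or more transcripts and at least 100 counts in each population, with at least 20 in each run. A gene was called where 1 transcript differed by more than 0.1 in fraction with the same sign in each run, which held for 63 genes (7.95%). Without the rule on runs 114 genes passed. The median over genes of the largest difference was 0.04. Of the 171 genes called for their level, 2 had enough counts to be compared for isoforms and neither was called, so that the gene and the isoform comparison cover largely separate genes.

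Nudt14, a hydrolase of nucleotide sugars, had the largest difference. Its transcript Nudt14-201, which skips the 36 bases shown above, held 0.706 of the counts (exact binomial interval 0.629 to 0.775) in early HE-YSA and 0.391 (0.301 to 0.486) in early HE-YSP. In the 3 runs the fractions were 0.718, 0.676 and 0.717 against 0.387, 0.263 and 0.513. Over cells with at least 3 counts of the gene, 17 and 12, the median was 0.673 and 0.403. On the shared E10.5 plates the fractions were 0.777 and 0.347. Among the E9 and E9.5 cells they were 0.602 and 0.614, on 43 and 19 counts of the gene, and so were nearly equal. Summing the transcripts that contain the stretch against the one that skips it gave fractions with the stretch of 0.274 in early HE-YSA and 0.598 in early HE-YSP. All 3 runs of early HE-YSP lay above all 3 of early HE-YSA.

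Rbm5, an RNA-binding protein that acts on splicing, had the next largest. Rbm5-211, annotated as a target of nonsense-mediated decay and lacking the 4 bases AGAG, held 0.697 (0.600 to 0.782) and 0.415 (0.328 to 0.506) of the counts. The run fractions were 0.834, 0.714 and 0.548 against 0.216, 0.561 and 0.460, and so overlapped between runs. It was the leading transcript in 12 of 14 early HE-YSA cells and 7 of 16 early HE-YSP cells with 3 or more counts. Over all transcripts that can be assigned, the fraction with the 4 bases was 0.250 in early HE-YSA and 0.503 in early HE-YSP, with runs of 0.128, 0.247 and 0.385 against 0.733, 0.401 and 0.418, which did not overlap.

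Caprin1, an RNA-binding protein of stress granules, differed mainly through a few cells. Caprin1-208, which skips 51 bases, held 0.0549 (0.0239 to 0.106) in early HE-YSA and 0.323 (0.246 to 0.409) in early HE-YSP, but 56.8% of the early HE-YSP counts came from 1 cell. With all transcripts that can be assigned, the fraction with the stretch was 0.897 and 0.577, while the median over cells was 1 and 0.997. Capns1-204, a transcript of the small calpain subunit, held 0.279 in early HE-YSA and 0.00937 in early HE-YSP, with 65.5% of the early HE-YSA counts from 1 cell.

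Another 4 genes completed the 8 with the largest differences. Calm3, a calmodulin gene, had 0.130 (0.0812 to 0.193) of its counts on the long transcript Calm3-201 in early HE-YSA and 0.317 (0.250 to 0.389) in early HE-YSP, with run fractions of 0.0890, 0.129 and 0.180 against 0.124, 0.372 and 0.505. Spag7-202, a transcript with a retained intron, held 0.294 (0.231 to 0.364) and 0.105 (0.0654 to 0.158), and its medians over cells were 0.279 and 0.0246. Cct5-202, a retained-intron transcript of a chaperonin subunit, held 0.169 (0.119 to 0.229) and 0.360 (0.302 to 0.421) with a median of 0 over cells in both. At E9 and E9.5 its direction turned, with 0.219 and 0.153 on 64 and 85 counts. Csnk1a1-206, of a casein kinase, held 0.551 (0.477 to 0.624) and 0.362 (0.290 to 0.439). At E9 and E9.5 the fractions were 0.727 and 0.467 for Rbm5-211, 0.164 and 0.248 for Calm3-201, 0.507 and 0.408 for Csnk1a1-206, 0.160 and 0.121 for Spag7-202, 0.0407 and 0.103 for Caprin1-208 and 0.10 and 0 for Capns1-204. These kept the direction of all 48 cells, on 22 to 82.5 counts per population.

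Most of the called transcripts were protein coding. Of the 84 called, 67 (of 2600 compared) were protein coding, 7 (of 1044) had a retained intron and 3 (of 355) were annotated for nonsense-mediated decay. By direction 44 were higher in early HE-YSA and 40 in early HE-YSP. Among SR and hnRNP splicing factors 1 of 14 compared genes was called (Hnrnpc), among ribosomal protein genes 3 of 56 (Rpl31, Rpl9 and Rps2), and among pan-endothelial genes 0 of 12, against 7.95% of all genes compared. Genes with deep coverage had narrow intervals. Pfn1-201, of the actin-binding protein profilin, held 0.983 (0.979 to 0.987) and 0.985 (0.981 to 0.988). Rpl34-201 held 0.596 (0.572 to 0.620) and 0.522 (0.496 to 0.548), but its runs lay between 0.457 and 0.671 in early HE-YSA and between 0.465 and 0.571 in early HE-YSP, and it was not called. Runx1, Arglu1 and Ythdf2 had too few counts for isoforms to be compared.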

How the data were processed

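Nanopore long reads of Smart-seq2 cDNA from single yolk sac cells were analysed, 1 cell per sample. The authors trimmed reads (bbduk), filtered chimeras (YACRD, porechop), mapped the rest to GENCODE transcripts with Minimap2 2.26, allowing several alignments per read, and estimated transcript abundance with NanoCount, so that paralogs and pseudogenes can share reads. The deposited values used here are these estimated counts, without normalization by the authors. The deposited TPM are the same estimates scaled to 1 total per cell without gene length, and served as an alternative only. Cells were grouped by the labelled cell type. The library-size filter of the study's methods removed cells under 17595 counts. Transcripts were summed per gene and cells per population, with Python 3.11.15 (pandas 2.3.3, scipy 1.17.1). An estimated count within 0.001 below 1 was taken as 1.

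No test was run, because a population is 1 sample. Named genes were the 12 called genes with the largest ratio each way, 2 by ratio and 2 by level in each list, the markers, and the 8 isoform genes with the largest differences. Other genes were chosen after their values were seen, and some genes under the rule are not reported here. The members and lists were chosen with earlier results of these data known. Intervals are 95% exact Poisson or Clopper-Pearson and, since PCR copies cannot be told apart, cover counting error only. Splice stretches were read from GENCODE M21 (GRCm38), in which all 49 transcripts of the named isoform genes had the same identifier and length. Scripts were tested on simulated data. Alternatives covered depth, runs, stages, plates, sort tags, size factors (DESeq2 1.42.0 in R 4.3.3) and thresholds.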

Additional observations from a re-analysis of the deposited data

How the results depend on the processing

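With a population under 3 counts placed at 3, the called genes named by the rule kept their sign under the alternatives tried. Among HE_Runx1 cells that limit set the sign of Gfi1 and of Pdcd4, the latter at 0 and 6.70 CPM. Without the limit both were lower in early HE-YSA there. Of the other called genes in the text, Cmtm3 and BC028528 turned sign in E9 and E9.5 cells. Spns1 did so in HE_Gfi1 cells and Tcn2 in HE_Runx1 cells. Each alternative chose its compared genes anew, so its medians differ from those in the report, which keep the genes compared over all 48 cells. The numbers of calls moved more, mostly upward in subsets of the cells. The 92 genes higher in early HE-YSA became 265, 255 and 272 in runs 1, 2 and 3 alone, 144 without run 1, 151 without run 2, 153 in E9 and E9.5 cells, 144 in E10.5 cells of shared plates, 372 in HE_Runx1 cells, 194 at a log2 threshold of 1 and 571 with no minimum share of cells. The 79 genes higher in early HE-YSP became 222, 292 and 332 in single runs, 134 without run 1, 169 at E10.5, 172 on the shared plates, 431 in HE_Gfi1 cells, 121 in HE_Runx1 cells, 158 at a log2 threshold of 1 and 310 with no minimum share. Of the calls on the shared plates, 64 of 144 and 59 of 172 were also among the 92 and 79. With DESeq2 size factors 85 of 93 and 72 of 77 were. The 63 isoform genes became 35 when cells were thinned to 18542 counts, 32 in run 2 alone, 41 at E10.5, 23 at E9 and E9.5, 39 on the shared plates, 7 in HE_Gfi1 cells, 9 in HE_Runx1 cells, 178 and 10 with count minimums of 50 and 300, and 4 at a threshold of 0.2, where fewer or more genes could be compared. The arterial median of 2.37 became 1.85 in run 2, 2.95 without run 3, 2.87 on the shared plates, 0.61 in HE_Gfi1 cells and 2.85 in HE_Runx1 cells. The yolk-sac median of -3.17 became -2.82 with thinned cells, -2.37, -2.28 and -2.69 in single runs, -2.94 without run 3, -1.86 at E9 and E9.5, -2.92 without plate WN-S7-1, -1.80 in HE_Gfi1 cells and -0.35 in HE_Runx1 cells. In these tag subsets the median of all genes was itself -0.44 (HE_Gfi1) and 0.84 (HE_Runx1). The Notch median of 1.60 was the least stable: 1.23 with no limit on totals, 1.29 with thinned cells, 1.08, 0.12 and 0.26 in single runs, 0.30, 1.01 and 0.63 without run 1, 2 or 3, 0.41 at E10.5, 0.60 at E9 and E9.5, 0.55 on the shared plates, 0.98 without plate WN-S7-1, 1.32 without the 2 cells of another sort or project, 1.91 in HE_Runx1 cells and -0.26, with the sign turned, in HE_Gfi1 cells. The causes of these shifts were not tested.

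Chosen after seeing the data, leaving out single cells gave 80 to 101 and 65 to 83 called genes, 52 to 75 isoform genes, and medians of 2.259 to 2.887 (arterial), 0.77 to 1.68 (Notch) and -3.26 to -3.01 (yolk-sac). Of the called genes, 53 of 92 and 45 of 79 kept the call without any 1 cell. Without the tolerance for counts just under 1, also added later, there were 71 and 71 calls and the Notch median was 1.25. Of the named genes' ratios under all alternatives, 1514 stayed within the counting interval of the reported ratio and 695 fell outside it. Among the called genes named by the rule, 0 turned sign. Of the isoform differences, 75 stayed within their binomial intervals and 12 fell outside them. No paired analysis was possible because the result comes from no test and the replicate numbers only name cells. Depth limits genes below about 3 counts per population and the isoforms of genes under 100 counts, which include most of the genes called for their level.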

Other observations

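Several genes had large ratios but were detected in under 50% of the cells of the higher population, which kept them from being called. Flrt2, a venous guidance receptor, had a count in 11 early HE-YSP cells and no early HE-YSA cell, and Fcgr3, an Fc receptor of myeloid cells, in 10 and 0 cells. Nfe2, a transcription factor of erythroid and megakaryocytic cells, had a count in 7 early HE-YSA cells and no early HE-YSP cell. The maternally expressed long non-coding RNA Meg3 had a count in 7 early HE-YSA cells and 1 early HE-YSP cell, with 1887 CPM in the highest cell. In contrast, Coro1a, an actin regulator of blood cells, missed the call by its ratio. It had a count in 17 early HE-YSA cells and 8 early HE-YSP cells, with summed levels of 159 CPM (134 to 189) and 57.6 CPM (42.6 to 76.1), and its log2 ratio of 1.47 was just under 1.5.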
